A study of Mus musculus with 18 samples.

Results

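Calcium/calmodulin kinases and calcineurin read the same signal in opposite ways. Calcium released in a working muscle fibre binds calmodulin, and calcium-loaded calmodulin switches on both the kinases, which add phosphate to their targets, and calcineurin, a phosphatase that removes it from proteins such as the NFAT transcription factors. CaMKII subunits assemble into large complexes through an association domain at their C-terminal end, and the linker between the kinase domain and that domain varies between splice forms.

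Described here are 10 genes of 46725 in the deposited tables, chosen by name for their role, with earlier results of these data known. They are the CaMKII subunit genes Camk2a, Camk2b, Camk2d and Camk2g, the CaMKI genes Camk1 and Camk1d, the calcineurin catalytic subunit genes Ppp3ca, Ppp3cb and Ppp3cc, and Rcan1, which encodes a protein that binds and inhibits calcineurin. Together they hold 304 of the 391858 exon bins, the non-overlapping pieces into which the authors cut the annotated exons of each gene before counting read pairs. The level of a gene is the sum of its bins in CPM, its counts scaled to a common library total, and the use of a bin is its percent share of its gene's counts.

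The libraries were RNA sequencing of gastrocnemius and quadriceps muscle from FVB mice aged 20 weeks, with 3 mice in each of 3 groups and 18 libraries in all. WT mice carried no transgene and were untreated. HSA-LR mice, a model of myotonic dystrophy labelled as untreated, express in skeletal muscle a human skeletal actin transgene with an expanded CTG repeat in its 3′ UTR, whose RNA sequesters MBNL splicing factors. The Pip6a-PMO group consisted of HSA-LR mice injected intravenously with pip6a-PMO, a cell-penetrating peptide joined to a morpholino oligomer against the repeat. The treatment protocol also names saline, but the labels do not say for each animal whether an untreated mouse received it, nor the dose, and expression is confined to the cells that use the actin promoter. An injection volume of 160 µL is given alike for all 18 libraries, those of WT and untreated HSA-LR mice included.

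Libraries held 98916844 to 143135976 counts, and the quadriceps and gastrocnemius libraries of a given number within a group carry the same animal number. The summed level of 6 muscle fibre markers was 107740 to 147523 CPM, none of them at 0. WT mouse 2, labelled female, had 154 CPM (gastrocnemius) and 181 CPM (quadriceps) of 4 summed Y-linked genes, within the 119 to 187 CPM of the mice labelled male, whereas WT mouse 3, labelled male, had 1.15 and 1.43 CPM. Both are therefore called by number, and leaving out either one is described beside the results that it changed. In gastrocnemius, Pip6a-PMO mouse 3 had a log2 ratio of 5′ to 3′ coverage of −2.34, against −1.78 to −1.98 in the other libraries. Replicates carry different animal numbers, and P values of genes measure the spread between these mice. The bin test pools the spread over all kept bins of a gene as if these were separate. Its P values can thus be far smaller than 3 mice per group alone would allow.

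At the gene level, Camk1d and Camk2d were higher in HSA-LR than in WT in both muscles and fell with treatment, whereas none of the calcineurin genes or Rcan1 was called in any comparison with all mice included. Genes were called at an adjusted P below 0.1 with edgeR's quasi-likelihood test. In HSA-LR against WT, 3 of the 10 genes were called in gastrocnemius, where 15.5% of 15625 tested genes were, and 3 of 10 in quadriceps, where 20.3% of 15574 were. In gastrocnemius these were Camk1d and Camk2d, higher, and Camk2g, lower, and in quadriceps Camk1d, Camk2d and Camk2b, all higher. For gastrocnemius, DESeq2 called 4 of the 10 in this comparison, among 2987 genes called in all. A fit by edgeR of the 2 compared groups alone also called 4 there, among 3376 genes in all. In Pip6a-PMO against HSA-LR, 3 of 10 were called in gastrocnemius against 10% of all genes, namely Camk1d, Camk2d and Camk2b, all lower, and DESeq2 also called Camk2g (log2 change 0.26, adjusted P = 0.0867). In quadriceps 4 of 10 were called against 13.8%, the same 3 genes lower and Camk2g higher. The median log2 change of the 10 genes in HSA-LR against WT was −0.10 in gastrocnemius and −0.11 in quadriceps, beside −0.01 and 0.01 over all tested genes. A share of 3 in 10 rests on few genes, and the HSA-LR libraries serve in both comparisons, so the values of each are given side by side below. In whole muscle, fewer cells of a type and less RNA per cell cannot be told apart.

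**Figure D1:**
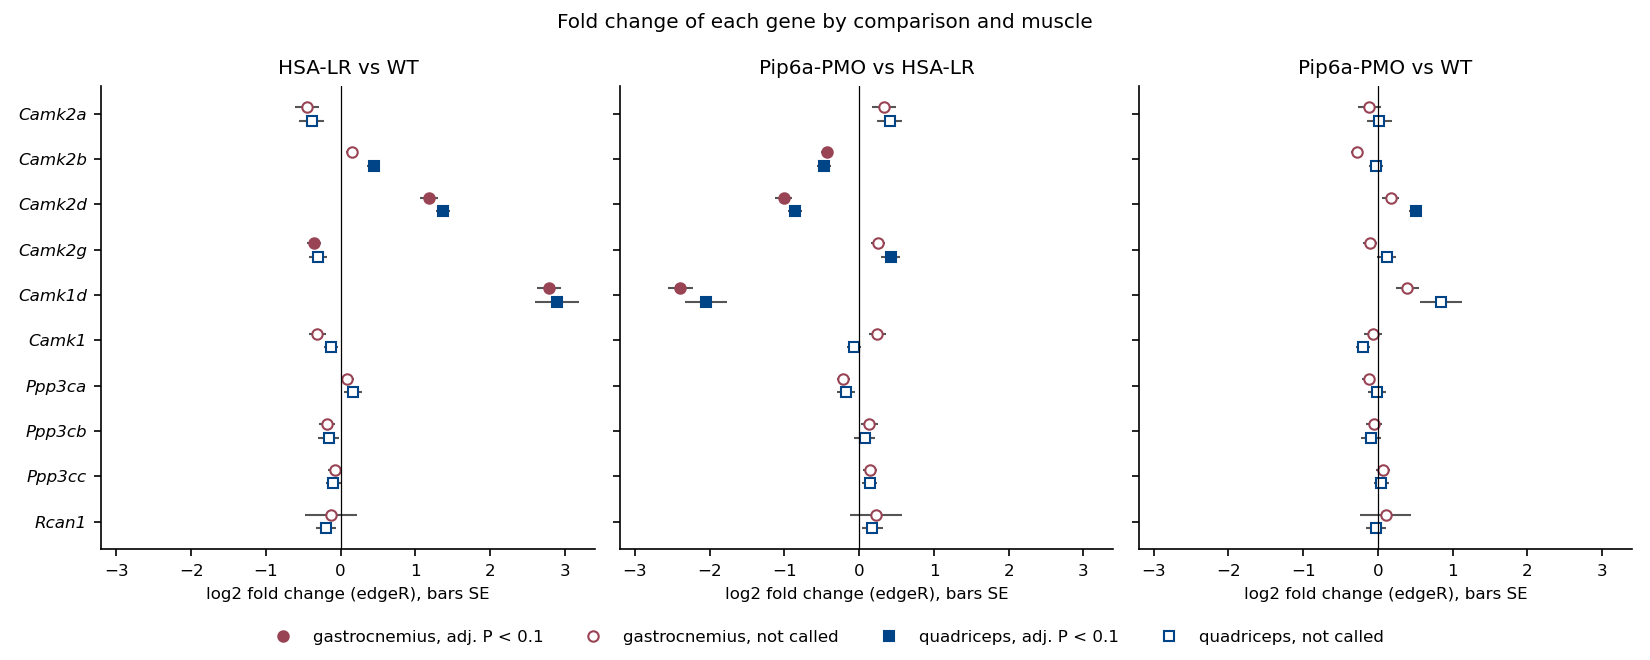
Fitted log2 fold change with its standard error for the 10 genes in gastrocnemius and quadriceps, for HSA-LR against WT, Pip6a-PMO against HSA-LR and Pip6a-PMO against WT, from edgeR with 3 mice per group. Camk1d stands at 2.79 and 2.89 and Camk2d at 1.18 and 1.37 in HSA-LR against WT, both are negative in Pip6a-PMO against HSA-LR, and Ppp3cb and Ppp3cc lie between −0.19 and 0.14.

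Camk1d, which encodes the delta isoform of CaMKI, showed the largest difference of the 10 genes in HSA-LR against WT. In gastrocnemius its level was 3.20, 2.84 and 2.11 CPM in the WT mice, 22, 19.1 and 18.4 CPM in the HSA-LR mice and 3.67, 3.55 and 2.92 CPM in the Pip6a-PMO mice. Every HSA-LR library lay above every WT and every treated library. In quadriceps the values were 3.17, 3.85 and 1.70 CPM in WT, 18.5, 27.2 and 24.7 CPM in HSA-LR and 5.88, 4.66 and 4.71 CPM in Pip6a-PMO, again with no overlap around the HSA-LR mice. The log2 change of HSA-LR against WT was 2.79 ± 0.17 (SE, adjusted P = 7.57e-05) in gastrocnemius and 2.89 ± 0.30 (adjusted P = 0.000599) in quadriceps. The log2 change of Pip6a-PMO against HSA-LR was −2.39 ± 0.16 (adjusted P = 0.000434) and −2.05 ± 0.28 (adjusted P = 0.00619). Against WT, treated mice stood at 0.40 ± 0.16 (adjusted P = 0.422) and 0.84 ± 0.28 (adjusted P = 0.269), a difference not called by edgeR in either muscle, although all 3 treated quadriceps libraries lay above all 3 of WT. DESeq2 called it in quadriceps (log2 change 0.84, adjusted P = 0.0698). Without WT mouse 3, the lowest of its group, the log2 change of HSA-LR against WT was 2.62 in both muscles and stayed called. None of its 11 tested bins was called for a change in use in any comparison. The WT mean of 2.72 ± 0.56 CPM (SD, n = 3) in gastrocnemius rested on 365 counts per library.

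Camk2d encodes the CaMKII subunit best known from heart muscle and also present in skeletal muscle. Its level was 62.3, 55.4 and 66.9 CPM in WT gastrocnemius, 163, 137 and 142 CPM in HSA-LR and 75.8, 68.0 and 52.9 CPM in Pip6a-PMO. In quadriceps it was 53.4, 57.3 and 61.6 CPM in WT, 181, 152 and 151 CPM in HSA-LR and 83.2, 80.4 and 74.5 CPM in Pip6a-PMO. HSA-LR libraries lay above the others in both muscles, and treated quadriceps libraries lay between the other groups without touching either. The log2 change of HSA-LR against WT was 1.18 ± 0.12 (adjusted P = 0.000482) in gastrocnemius and 1.37 ± 0.094 (adjusted P = 8.9e-05) in quadriceps. With treatment Camk2d fell by 1.01 on the log2 scale in gastrocnemius (SE 0.12, adjusted P = 0.00346) and by 0.86 in quadriceps (SE 0.093, adjusted P = 0.00205). In quadriceps it remained 0.50 ± 0.092 above WT (adjusted P = 0.0586), the only gene of the 10 called in Pip6a-PMO against WT, where 1.41% of all genes were called. That call was lost on leaving out WT mouse 1 or 2 or any treated mouse, with adjusted P values of 0.109 to 0.235. The log2 value was 0.35 when each gene was counted by its largest bin alone.

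In gastrocnemius, 0 of the 10 genes were called by edgeR in Pip6a-PMO against WT, where 1.04% of all genes were. At an unadjusted P below 0.05 the count was 2. DESeq2 called 1, among 529 genes in all, and limma-voom 0, among 124.

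Camk2b, the CaMKII subunit gene whose exons carry the differences described below, changed less as a whole gene. In gastrocnemius its level was 300.0, 278 and 302 CPM in WT, 355, 341 and 338 CPM in HSA-LR and 260.1, 217 and 208 CPM in Pip6a-PMO, with the groups in 3 separate ranges. In quadriceps the ranges were 255 to 273 CPM in WT, 367 to 422 CPM in HSA-LR and 241 to 259.7 CPM in Pip6a-PMO. The rise in HSA-LR was called in quadriceps (log2 change 0.44 ± 0.091, adjusted P = 0.0144) and not in gastrocnemius (0.16 ± 0.082, adjusted P = 0.277). The fall with treatment was called in both muscles, at −0.44 ± 0.082 (adjusted P = 0.0206) in gastrocnemius and −0.47 ± 0.091 (adjusted P = 0.0218) in quadriceps. Without HSA-LR mouse 1 the gastrocnemius fall had an adjusted P of 0.104. The difference of the HSA-LR effect between muscles, tested over all 18 libraries, was 0.27 ± 0.12 on the log2 scale for Camk2b (quadriceps minus gastrocnemius, unadjusted P = 0.031). With adjustment 0 of the 10 genes, and 0.0% of 16167 genes, were called for this difference by edgeR, and DESeq2 and limma-voom called 0 of the 10 as well. Camk2b was the only one of the 10 with an unadjusted P below 0.05. For the treatment effect between muscles, 0 of the 10 were called and 0 had an unadjusted P below 0.05. Between WT quadriceps and WT gastrocnemius, edgeR, DESeq2 and limma-voom each called 0 of the 10, with 0 at an unadjusted P below 0.05, where edgeR called 0.297% of all genes. The fit without a block leaves out that both muscles came from the same 9 mice. With the mouse as a block, edgeR still called 0 of the 10 in these 3 comparisons, but 305 genes in place of 48 between the WT muscles and 5 in place of 0 for the HSA-LR effect, and 1 of the 10 had an unadjusted P below 0.05 for the treatment effect.

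Camk2g and Camk2a leaned the other way. Camk2g stood at 219, 217 and 217 CPM in WT gastrocnemius, 183, 177 and 179 CPM in HSA-LR and 187, 215 and 171 CPM in Pip6a-PMO. Its WT and HSA-LR libraries did not overlap, and the treated ones covered the HSA-LR range. The change in HSA-LR was called in gastrocnemius (−0.35 ± 0.093, adjusted P = 0.0423), and this call was lost when any 1 of WT mouse 1, WT mouse 2 or the HSA-LR mice was left out, with adjusted P values of 0.109 to 0.131. In quadriceps the value was −0.30 ± 0.12 (adjusted P = 0.144), followed by a called rise of 0.42 ± 0.12 with treatment (adjusted P = 0.0759), which also was lost without any 1 of 5 of the 6 mice compared. Camk2a stood at 421, 381 and 277 CPM in WT gastrocnemius and at 285, 283 and 269.6 CPM in HSA-LR, with WT mouse 3 inside the HSA-LR range. Its log2 change was −0.45 ± 0.16 (adjusted P = 0.115) in gastrocnemius and −0.39 ± 0.16 (adjusted P = 0.161) in quadriceps. Without WT mouse 3 these became −0.61 (adjusted P = 0.018) and −0.51 (adjusted P = 0.0875), both past the threshold.

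The remaining CaMKI gene, Camk1, was not called in any comparison by edgeR with all mice and groups of a muscle fitted together. It ranged from 31.1 to 42.8 CPM over the 18 libraries, and its log2 change in HSA-LR was −0.31 ± 0.12 in gastrocnemius (adjusted P = 0.133) and −0.13 in quadriceps.

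The calcineurin genes comprise Ppp3ca and Ppp3cb, which encode the catalytic subunits of muscle and many other tissues, and Ppp3cc, known chiefly from testis. Ppp3ca was 223, 207 and 234 CPM in WT gastrocnemius, 248, 239 and 259 CPM in HSA-LR and 192, 194 and 188 CPM in Pip6a-PMO. The 3 groups did not overlap, yet after normalisation across genes the changes were 0.09 ± 0.085 (adjusted P = 0.559) and then −0.21 with treatment (unadjusted P = 0.0318, adjusted P = 0.180 with edgeR). In quadriceps Ppp3ca changed by 0.16 ± 0.12 (adjusted P = 0.422) in HSA-LR. Ppp3cb ran from 298 to 413 CPM and Ppp3cc from 25.1 to 30.4 CPM over all libraries, and their log2 changes in HSA-LR lay between −0.19 and −0.07. Rcan1, itself a known target of calcineurin signalling, was 44.7 to 56.8 CPM in all quadriceps libraries. There it was called in neither comparison with HSA-LR unless HSA-LR mouse 3 was left out (log2 change −0.37, adjusted P = 0.0534, and with treatment 0.35, adjusted P = 0.0669). In gastrocnemius it scattered within groups, with 50.2, 69.0 and 73.5 CPM in WT, 64.2, 49.6 and 72.0 CPM in HSA-LR and 117, 40.5 and 41.6 CPM in Pip6a-PMO, where mouse 1 alone set the treated mean. Its log2 change in HSA-LR was −0.12 ± 0.35 (adjusted P = 0.866) there, so that a change of the size called for Camk2b was not detectable at this spread.

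**Figure D2:**
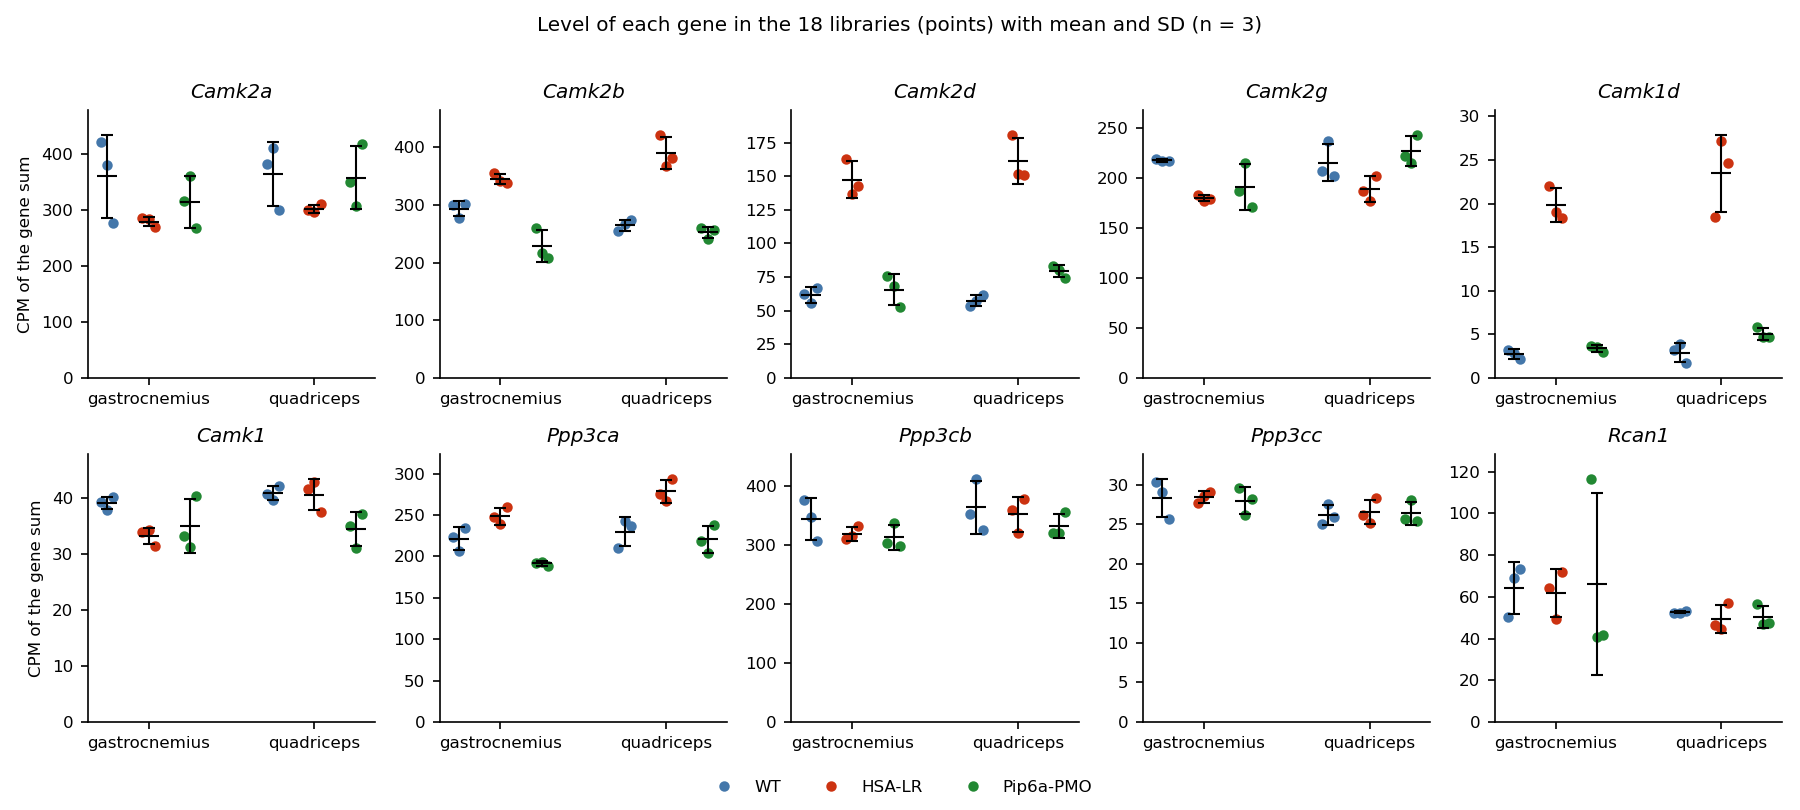
Level of each of the 10 genes in CPM in every mouse, by group and muscle (points), with the group mean and SD (n = 3). In Camk1d and Camk2d the HSA-LR mice lie above all WT and treated mice in both muscles, and in Rcan1 gastrocnemius 1 treated mouse at 117 CPM lies far above the others.

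Levels can be ordered between genes only per length, and only 6 of the genes could be matched to the annotation used here (GENCODE M21, mouse build GRCm38) with the same gene version. In WT gastrocnemius the mean CPM per kilobase of annotated exon was 48.2 ± 9.97 for Camk2a, 32.2 ± 1.47 for Camk2b, 22.2 ± 1.37 for Ppp3ca, 6.54 ± 0.19 for Camk1, 2.74 ± 0.26 for Camk2d and 0.37 ± 0.075 for Camk1d (SD, n = 3). The ranges of neighbours in this order did not overlap in WT gastrocnemius. In HSA-LR gastrocnemius the mean CPM per kilobase was 37.8 for Camk2b and 37.4 for Camk2a, whose mice overlapped, and 6.55 for Camk2d and 5.56 for Camk1, whose mice did not. Lengths cover every annotated exon, used or not, so genes with many unused exons are understated. A read pair that crosses several bins counts in each, so genes cut into many short bins are overstated.

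Camk2a is a gene with many almost unused exon bins, so its level per length is understated in that respect. Of its 30 bins, bins 019 to 030 held 99.9% of the counts in the median library of each muscle, with 29201 to 54514 counts per library. Bins 001 to 018 together held 14 to 60 counts per library. In the annotation the transcript ENSMUST00000115295.8 begins at bin 019, so that the counted RNA lay almost wholly in the part of the locus shared with that short transcript. As background, skeletal muscle is known for αKAP, an anchoring protein made from this locus that lacks the kinase domain. No bin of Camk2a was called in any comparison, and its level above is thus mainly that of the downstream part.

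**Figure D3:**
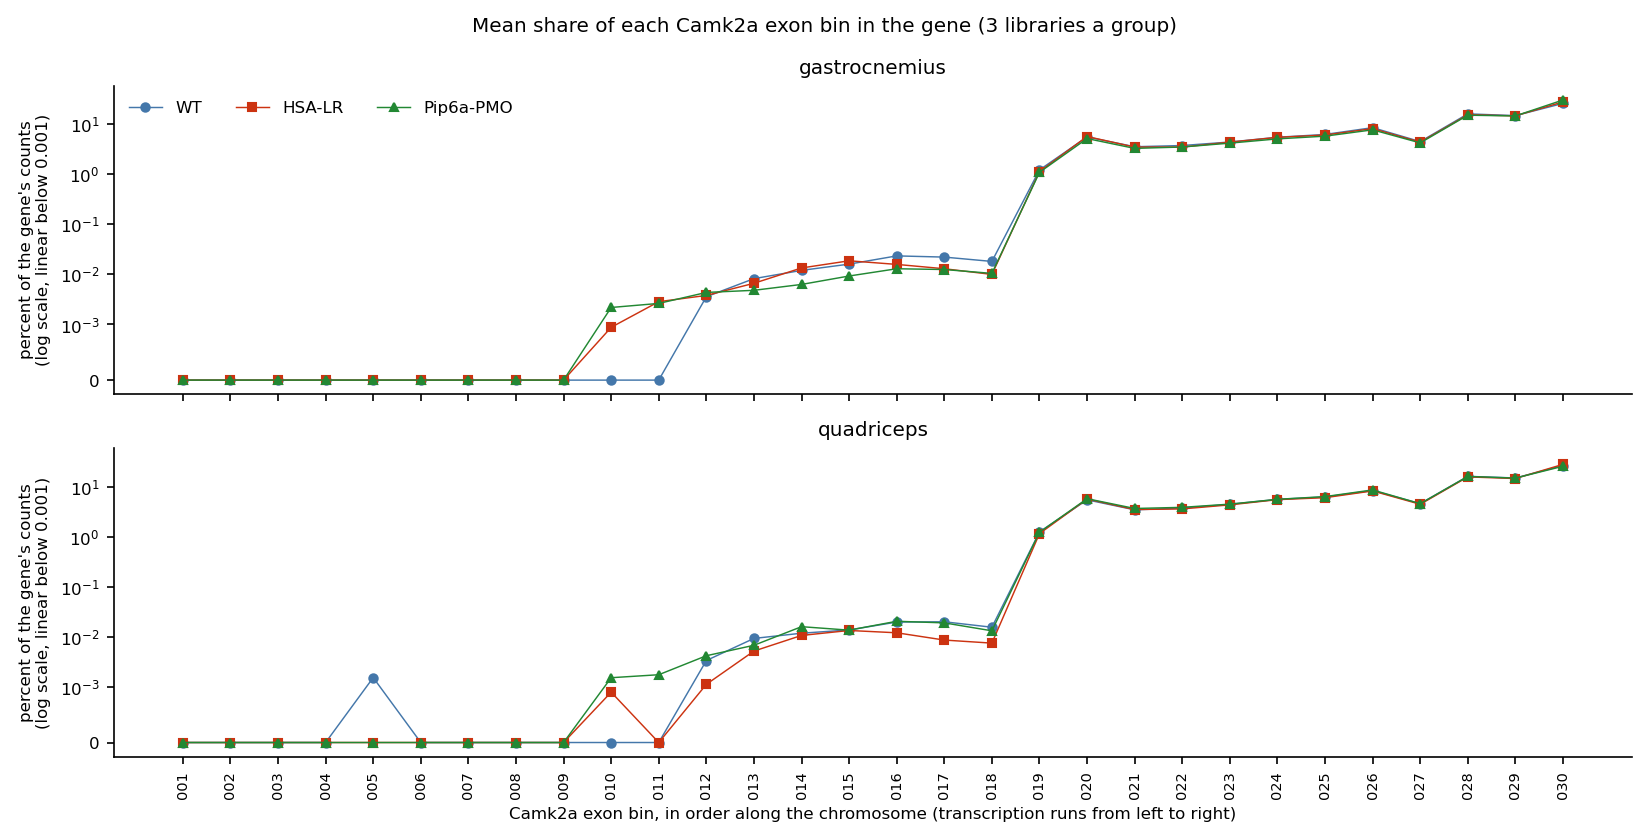
Mean percent share of Camk2a counts held by each of its 30 exon bins, in order along the chromosome, for the 3 groups in each muscle, on a log axis that is linear below 0.001%. Bins 001 to 018 together hold 14 to 60 counts per library, and bins 019 to 030 hold 99.9% of the counts in every group.

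By the number of called bins, exon use differed between the groups most in Camk2b, where HSA-LR mice used bin 022 more and bins 015, 016, 017 and 024 less than WT mice in both muscles, and treated mice moved back on all 5. Of 214 tested bins of the 10 genes, 9 were called in HSA-LR against WT in gastrocnemius, 2 used more and 7 used less, where 0.807% of all tested bins were called. In quadriceps 7 of 216 were called, 2 used more and 5 less, against 0.284%. In Pip6a-PMO against HSA-LR, 9 of 214 were called in gastrocnemius (0.305% of all bins) and 8 of 216 in quadriceps (0.168%). In Pip6a-PMO against WT 1 was called in each muscle (0.0654% and 0.0353% of all bins), the same Camk2b bin both times. Camk2b held 5 of the called bins in each of the first 4 of these comparisons, out of 39 tested, Camk2d held 1 to 3 and Camk2g 1. The other 7 genes held none.

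Camk2b lies on the minus strand of chromosome 11, at chr11:5969644-6066362, and its bins are numbered along the chromosome, so that transcription runs from bin 026 down to bin 014. All bins named here are coding. Bin 022 is 3 bases long (chr11:5982759-5982761) and directly precedes bin 021 (chr11:5982721-5982758, 38 bases) in the transcript, as an extension of its 5′ end. Upstream of it in the transcript lie bin 024, a cassette of 75 bases (chr11:5987057-5987131), and bin 025 (chr11:5988101-5988143, 43 bases). Of 10 annotated transcripts that span the region, 5 contain bin 022, 4 contain bin 024, 1 contains neither and 0 contain both. The junctions are shown because they carry the largest change in use, with bin 022 or bin 024 in capitals and the flanking bins in lower case, written 5′ to 3′ in the sense of the gene from GENCODE M21 transcripts of GRCm38:
bin 025, bin 022, bin 021: ggaatttctcagCAGccaagagtttactca
bin 025, bin 024: cacggaatttctcagTGGGCAGACAGACCA
bin 024, bin 021: GGCTGGTGGAACAAGccaagagtttactca

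The first sequence joins bin 025 to bin 021 through the 3 bases of bin 022, whereas the other sequences are the start and the end of bin 024 in a transcript that holds it in that place. The lengths of both bins divide by 3.

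Bin 022 rose more than any other bin of the 10 genes. In gastrocnemius its share of Camk2b counts was 0.107%, 0.217% and 0.164% in the WT mice, 1.71%, 1.78% and 2.01% in the HSA-LR mice and 0.454%, 0.258% and 0.254% in the Pip6a-PMO mice. In quadriceps it was 0.134%, 0.102% and 0.129% in WT, 1.60%, 1.77% and 1.53% in HSA-LR and 0.306%, 0.330% and 0.146% in Pip6a-PMO. The HSA-LR mice lay above all others, and each treated mouse lay above each WT mouse of its muscle. An exact permutation test over 3 against 3 mice gave P = 0.1 for every such separation, the smallest value that this design allows. The mean counts of the bin were 65.0 in WT, 762 in HSA-LR and 96.3 in treated gastrocnemius. Relative to its gene, the bin changed in HSA-LR against WT by 3.5 on the log2 scale in gastrocnemius (edgeR diffSpliceDGE, adjusted P = 1.56e-54) and by 3.74 in quadriceps (adjusted P = 3.78e-46). With treatment it fell by 2.48 (adjusted P = 9.99e-29) and by 2.66 (adjusted P = 1.79e-26). These P values rest on the spread pooled over the 39 kept bins of the gene, not on 3 mice per group alone.

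Against WT, bin 022 of treated mice remained 1.02 higher on the log2 scale in gastrocnemius (adjusted P = 0.00912) and 1.08 in quadriceps (adjusted P = 0.0944). The gastrocnemius call was lost without WT mouse 1 or treated mouse 1, whose share was the highest of its group. The quadriceps call was lost without any 1 of 7 of the 9 mice in the fit, WT mice 2 and 3 among them.

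As bin 022 rose, bin 024 fell. Its share in gastrocnemius was 3.11%, 2.79% and 2.78% in WT, 0.891%, 0.808% and 0.712% in HSA-LR and 2.36%, 2.86% and 2.49% in Pip6a-PMO. In quadriceps it was 2.86%, 3.16% and 2.90% in WT, 1.04%, 0.993% and 0.994% in HSA-LR and 2.78%, 2.86% and 2.99% in Pip6a-PMO. HSA-LR lay below the other groups in both muscles, and the treated and WT mice overlapped. The log2 change relative to the gene was −1.85 in gastrocnemius (adjusted P = 5.19e-18) and −1.56 in quadriceps (adjusted P = 4.79e-09), then 1.67 (adjusted P = 3.53e-14) and 1.51 (adjusted P = 2.81e-08) with treatment.

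A bin's share of its gene depends on how many bins a read pair crosses, so the counts were also set against a neighbouring bin, a choice made after seeing the data. Counts of bin 022 were 3.87% to 8.43% of those of bin 021 in WT gastrocnemius, 58.8% to 64.0% in HSA-LR and 9.64% to 17.2% in Pip6a-PMO. In quadriceps they were 3.57% to 5.23%, 54.2% to 58.8% and 5.49% to 11.4%. Counts of bin 024 were 101% to 111% of those of bin 025 in WT gastrocnemius, 23.2% to 30.6% in HSA-LR and 89.2% to 101% in Pip6a-PMO, and 104% to 112%, 31.6% to 36.8% and 98.3% to 106% in quadriceps. On this scale the HSA-LR mice of either muscle were again separate from all others, in both bins. The bins beside these were not called, namely 019, 020, 021, 025 and 026, with log2 changes of bin 019 of 0.21 and 0.18, of bin 021 of 0.18 and 0.12 and of bin 025 of 0.10 in both muscles in HSA-LR against WT. In gastrocnemius the HSA-LR mice still lay above all others in the share of each of these bins. Bin 019 held a mean of 2.99% there, against 2.58% in WT and 2.60% in Pip6a-PMO. Separation of the mice was thus not particular to the called bins.

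**Figure D4:**
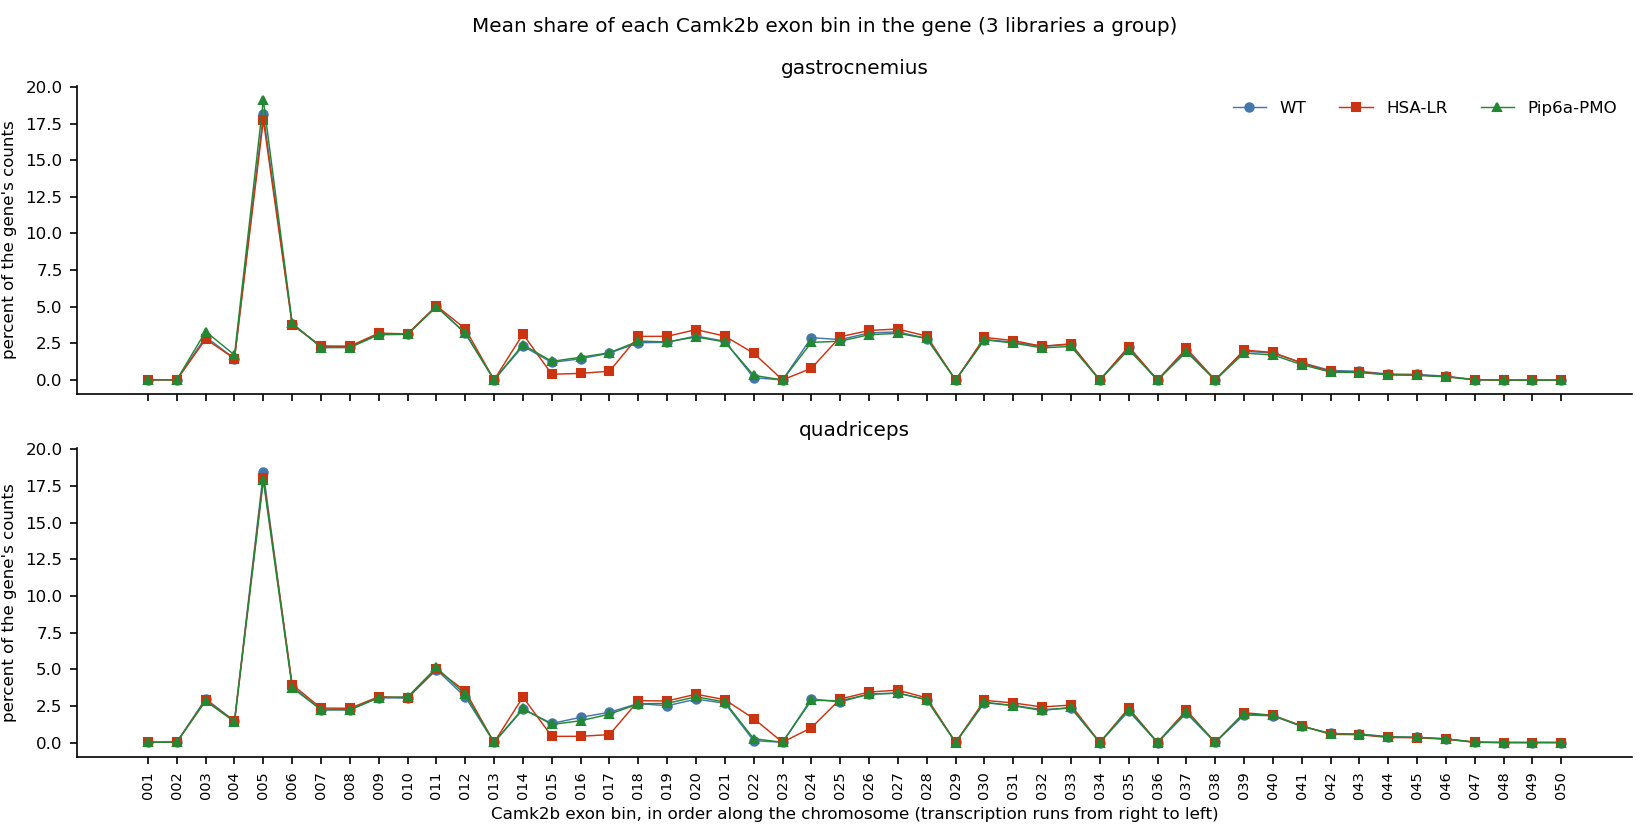
Mean percent share of Camk2b counts held by each of its 50 exon bins, in order along the chromosome, for the 3 groups of 3 mice in each muscle. HSA-LR stands above WT and treated mice at bin 022 (1.83% against 0.163% and 0.322% in gastrocnemius) and below them at bins 015, 016, 017 and 024, while bins 019, 020, 021, 025 and 026 differ less (2.99% against 2.58% and 2.60% at bin 019 in gastrocnemius).

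The other called Camk2b bins were a run of 3 exons further downstream, bin 017 (chr11:5978399-5978512, 114 bases), bin 016 (chr11:5977812-5977940, 129 bases) and bin 015 (chr11:5976765-5976893, 129 bases). Of the 10 annotated transcripts 1 contains bin 017, 2 contain bin 016 and 3 contain bin 015, and all lengths divide by 3. These exons resemble each other, and their first 30 bases from transcript ENSMUST00000019133.10 are shown in capitals for that reason:
bin 017: CCCCCAGGGTCCCTGATGTCCTGAGCTTGG
bin 016: CCCCCAGGATCTCTGACATCCTGAACTCAG
bin 015: CCCCCAGGATCTCTGACATCCTCAACTCAG

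Over their whole length bins 015 and 016 were 83.7% identical without gaps, with a longest identical run of 22 bases, and bin 017 and the first 114 bases of bin 016 were 59.6% identical. How reads that could come from more than 1 of them were assigned was not tested.

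In gastrocnemius the share of bin 016 was 1.49%, 1.27% and 1.60% in WT, 0.547%, 0.384% and 0.446% in HSA-LR and 1.68%, 1.61% and 1.39% in Pip6a-PMO. In quadriceps it was 1.70%, 1.75% and 1.71% in WT, 0.443%, 0.407% and 0.420% in HSA-LR and 1.55%, 1.41% and 1.49% in Pip6a-PMO. HSA-LR mice were below all others, and treated mice overlapped WT in gastrocnemius but lay below them in quadriceps, where the difference was not called (log2 change −0.21). In HSA-LR against WT the log2 changes of bins 015, 016 and 017 were −1.60, −1.67 and −1.60 in gastrocnemius and −1.62, −2.02 and −1.93 in quadriceps. With treatment they were 1.67, 1.76 and 1.61, then 1.54, 1.81 and 1.84. Against bin 018, the exon just upstream of the run in the transcript, bin 017 held 66.3% to 81.4% of the counts in WT gastrocnemius, 15.7% to 24.3% in HSA-LR and 67.8% to 72.5% in Pip6a-PMO.

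Camk2g and Camk2d had fewer called bins. Camk2g bin 008, which is given by number only because its gene version differs from the annotation, held 0.588%, 0.468% and 0.496% of Camk2g counts in WT gastrocnemius, 0.950%, 0.936% and 0.989% in HSA-LR and 0.462%, 0.441% and 0.423% in Pip6a-PMO. In quadriceps it held 0.492%, 0.447% and 0.458% in WT, 1.01%, 0.945% and 1.02% in HSA-LR and 0.546%, 0.508% and 0.506% in Pip6a-PMO. The HSA-LR mice were above all others in both muscles. The log2 change in HSA-LR against WT was 0.89 (adjusted P = 0.00523) and 1.09 (adjusted P = 0.00157), and with treatment −1.12 (adjusted P = 0.000164) and −0.93 (adjusted P = 0.0328). Without WT mouse 2 the gastrocnemius change in HSA-LR was no longer called. As a percent of bin 009, its neighbour, bin 008 was 13.0% to 16.4% in the WT libraries of both muscles, 26.7% to 30.2% in HSA-LR and 12.9% to 15.5% in Pip6a-PMO.

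Camk2d bin 080 (chr3:126844916-126846295, 1380 bases of UTR) fell in use in HSA-LR, from 1.22% ± 0.22 to 0.514% ± 0.046 of the gene in gastrocnemius (SD, n = 3) and from 1.36% ± 0.047 to 0.604% ± 0.13 in quadriceps. The log2 change was −1.26 (adjusted P = 6.27e-05) and −1.20 (adjusted P = 0.00197), and with treatment 0.99 (adjusted P = 0.0203) and 0.95 (adjusted P = 0.0864). Its mean counts hardly moved (102 in WT and 92.0 in HSA-LR gastrocnemius) while those of the gene rose, and against its nearest tested bins the fall in quadriceps turned into a log2 value of 0.16. Camk2d bin 059 (chr3:126816065-126818800) had the smallest P of that gene with treatment in quadriceps, at −2.00 (adjusted P = 0.00112), from 68.0 to 9 mean counts. With treatment it was also called in gastrocnemius, at −1.35 (adjusted P = 0.0696), from 60.0 to 10.7 mean counts. In HSA-LR against WT it was not called (log2 values of 1.06 and 1.27, adjusted P = 0.199 and 0.328). Camk2d bins 011 and 012, named after their values were seen, were called in HSA-LR against WT in gastrocnemius with log2 changes of −1.49 and −1.26 and were lost without WT mouse 3. Both lie near the 5′ end of the gene. Bin 012 was also called there with treatment (1.09, adjusted P = 0.0904), though treated and HSA-LR mice overlapped. Treated mouse 3, the library with the low 5′ to 3′ ratio, held 0.190% in this bin, against 0.569% and 0.572% in the other treated mice. In quadriceps the log2 changes of bins 011 and 012 in HSA-LR against WT were −0.38 and −0.28 and were not called (unadjusted P = 0.344 and 0.412).

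**Figure D5:**
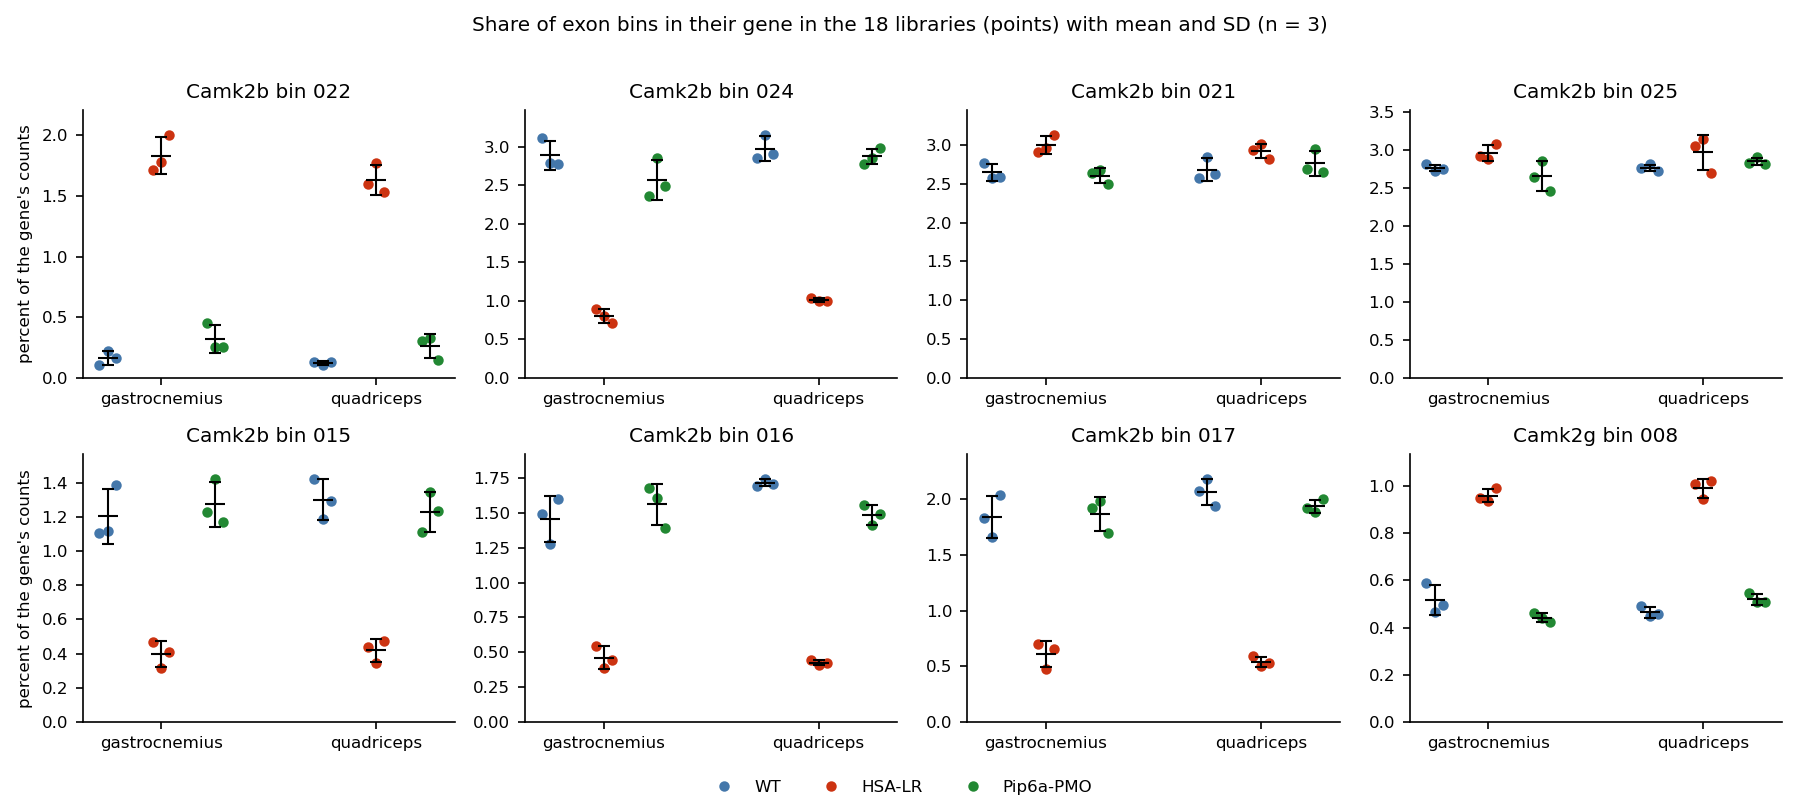
Percent share of the gene's counts held by 7 Camk2b exon bins and Camk2g bin 008 in every mouse (points), by group and muscle, with the group mean and SD (n = 3). In Camk2b bin 022 and Camk2g bin 008 the HSA-LR mice lie above the others, in Camk2b bins 015, 016, 017 and 024 they lie below them, and the flanking bins 021 and 025 were not called.

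Of 46 further genes for calmodulin, its binding partners and the targets of these enzymes, 41 were tested. In HSA-LR against WT 9 were called in gastrocnemius, 3 higher and 6 lower (15.5% of all genes), and 10 in quadriceps, 3 higher and 7 lower (20.3%). In Pip6a-PMO against HSA-LR 7 were called in gastrocnemius, 5 higher and 2 lower (10% of all genes), and 13 in quadriceps, 11 higher and 2 lower (13.8%). In Pip6a-PMO against WT edgeR called 0 in gastrocnemius, with 5 at an unadjusted P below 0.05 (1.04% of all genes), and 1 in quadriceps (1.41%), the histone deacetylase gene Hdac4 (log2 change 0.98, adjusted P = 0.0653). The median log2 change in HSA-LR against WT was −0.07 and −0.11.

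Nfatc2, an NFAT transcription factor that calcineurin dephosphorylates, had the smallest P of these in gastrocnemius. It was 16.2, 14.9 and 12.7 CPM in WT gastrocnemius, 49.9, 48.5 and 38.8 CPM in HSA-LR and 17.1, 15.6 and 20.5 CPM in Pip6a-PMO. The HSA-LR mice again lay above all others, with log2 changes of 1.57 ± 0.16 in gastrocnemius and 1.72 in quadriceps, and −1.20 and −1.04 with treatment, all called. Mef2c, a muscle transcription factor regulated through CaMK signalling to histone deacetylases, was higher by 0.61 and 0.54 on the log2 scale in HSA-LR and changed by −0.67 and −0.44 with treatment. The genes called lower in HSA-LR and higher with treatment in both muscles included Crtc2, a CREB coactivator and calcineurin substrate (−0.75 and −0.70, then 0.57 and 0.56) and Pnck, a kinase of the CaMKI family (−1.13 and −1.04, then 0.95 and 0.69). Mylk, smooth muscle myosin light chain kinase, and Ppm1f, a phosphatase that acts on CaMKII, were called lower in HSA-LR in quadriceps (−0.67 and −0.40) and higher with treatment there (0.52 and 0.38), and not in gastrocnemius (−0.36 and −0.24 in HSA-LR). Camk2n2, a CaMKII inhibitor, was called higher in HSA-LR (0.84 and 1.33) at levels of only 0.334 to 1.31 CPM over all libraries and was not called with treatment.

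Some markers of other cell types also differed between the groups, with more of them called in quadriceps than in gastrocnemius. Summed over 7 macrophage markers, the level was 32.8 to 53.1 CPM in WT quadriceps, 77.1 to 99.3 CPM in HSA-LR and 31.1 to 47.3 CPM in Pip6a-PMO, with 6 of 7 called higher in HSA-LR and 6 of 7 called lower with treatment. In gastrocnemius it was 48.0 to 63.1, 65.2 to 73.0 and 35.5 to 53.1 CPM, with 2 of 7 called higher in HSA-LR. Summed over 8 neuron and Schwann cell markers, quadriceps values were 44.2 to 59.8 CPM in WT, 18.8 to 30.3 CPM in HSA-LR and 28.8 to 48.9 CPM in Pip6a-PMO. Of the 6 tested there, 4 were called lower in HSA-LR, and in gastrocnemius 0 of 4 tested were called. Of 4 endothelial markers 2 were called lower in HSA-LR quadriceps and 0 were called in gastrocnemius, and of 3 satellite cell markers 1 was called higher in each muscle. Over all genes, 15.5% were called in HSA-LR against WT in gastrocnemius and 20.3% in quadriceps, and 13.8% with treatment in quadriceps. Of 7 adipocyte and 5 erythroid markers 0 were called by edgeR in HSA-LR against WT in either muscle, with 3 and 4 at an unadjusted P below 0.05 in gastrocnemius and 0 in quadriceps. Slow fibre markers summed to 1921 to 14316 CPM in gastrocnemius and 85.8 to 2002 CPM in quadriceps, where 5 of 7 were called higher with treatment. The part of these cell types in the levels above was not tested.

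Over the 18 libraries the genes whose log2 CPM followed Camk1d most closely were Fam160a2 (Pearson r = 0.977), Mgea5 (0.970) and Ccny (0.969), and those closest to Camk2d were Uvrag (0.990), Itgb1 (0.983) and Prepl (0.980), of 15264 genes compared. The libraries share 9 mice and the contrast between groups, so these values are a description of likeness. Prepl rose by 2.11 and 2.15 on the log2 scale in HSA-LR, whereas Fam160a2 rose by 0.22 and 0.28.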

How the data were processed

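RNA was sequenced from poly(A)-selected, stranded libraries of 18 muscles. For each library the authors deposited a DEXSeq table of unnormalised counts by exon bin, in which a read pair that crosses several bins counts in each. The submitters' processing notes name GRCm38, CASAVA, HISAT and featureCounts 1.5.0 without their roles. Entries naming no gene (2.82% to 4.14% of a library) were left out. Bin counts were summed per gene. Genes were tested with edgeR 4.0.16 (R 4.3.3; glmQLFit, glmQLFTest, TMM, filterByExpr with a minimum count of 10 and total of 15), fitting the 9 gastrocnemius or the 9 quadriceps libraries together, and bins with diffSpliceDGE in genes with at least 2 kept bins. All P values are two-sided and were adjusted by Benjamini-Hochberg over all genes or bins tested, with calls at adjusted P below 0.1. Differences between muscles came from a fit of all 18 libraries. In the log2 CPM used for likeness a prior count of 2 was added.

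Alternatives were DESeq2 1.42.0, limma-voom (limma 3.58.1), no filter, the 2 compared groups alone, a replicate block and a 5′ to 3′ covariate. Further ones were leaving out each mouse, other denominators of a bin's share and TMM-adjusted CPM. In another, the counts of each gene's largest bin stood in for its sum. Scripts were tested on simulated data. Deviations of the same mouse in the other muscle correlated at 0.0922 to 0.548. Named were all 10 genes, Camk2b bin 022 with 3 kept bins on each side, bins called in HSA-LR against WT in both muscles with the same sign, the bin with the smallest P of each gene in a comparison, and up to 8 pathway genes with the smallest P among those called in HSA-LR against WT. Of these pathway genes 1 is not reported here. Members and lists were chosen with earlier results of these data known. The pathway genes Ppp3r1, Ppp3r2, Rcan3, Hdac5 and Pcp4 were not analysed here. Coordinates are those of GENCODE M21. Depth allowed mean counts of 9 in the least covered named bin and of 338 in the least covered of the 10 genes. P values of genes cover the spread between mice only, and those of bins draw on the spread pooled over the kept bins of a gene.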

Additional observations from a re-analysis of the deposited data

How the results depend on the processing

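With 3 mice per group, calls of genes with small fold changes and of bins with few counts depended on which mice were included. Of the log2 fold changes refitted with 1 mouse left out, 403 kept their direction and side of the threshold, 16 lost and 7 gained a call and 6 turned direction. Of the bin changes so refitted, 335 kept both, 41 lost and 2 gained a call. The log2 values that turned belonged to genes not called in that comparison, and their ranges over the mice left out were −0.27 to 0.012 for Rcan1 in HSA-LR against WT in gastrocnemius (highest without HSA-LR mouse 2), −0.39 to 0.47 for Rcan1 with treatment in gastrocnemius (lowest without treated mouse 1), −0.026 to 0.18 for Ppp3cb with treatment in quadriceps (negative without HSA-LR mouse 2 or treated mouse 3), −0.18 to 0.018 for Camk1 with treatment in quadriceps and −0.079 to 0.020 for Camk2b in Pip6a-PMO against WT in quadriceps (both positive without treated mouse 2).

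Leaving out 1 mouse at a time gave 3 to 5 of the 10 genes called in HSA-LR against WT in quadriceps (5 without HSA-LR mouse 3), 0 to 1 in Pip6a-PMO against WT in quadriceps (0 without WT mouse 1 or 2 or any treated mouse), and for bins 5 to 8 in Pip6a-PMO against HSA-LR in quadriceps (5 without treated mouse 1 or 2) and 0 to 1 in Pip6a-PMO against WT in either muscle. Over all genes these quadriceps fits called 2050 to 3373 in HSA-LR against WT, 2710 of them without HSA-LR mouse 3. In Pip6a-PMO against WT they called 50 to 306. In Pip6a-PMO against WT, DESeq2 called 1 of the 10 genes in gastrocnemius, Camk2b (adjusted P = 0.0678), among 529 genes in all. In quadriceps it called 2 of the 10, among 748. The main edgeR fits called 163 and 219 genes in all. Counting each gene by its largest bin alone gave 0 in quadriceps. With the replicate number as a block, 0 of the 10 genes were called there, among 90 in all, Camk2g lost its call with treatment in quadriceps (adjusted P = 0.101) and Camk2d bin 012 its call with treatment in gastrocnemius. Among the 10 genes and the named bins the block changed no other call. Over all genes in gastrocnemius, the block gave 1805 calls in place of 2427 in HSA-LR against WT and 921 in place of 1566 with treatment. Deviations of same-numbered mice of different groups correlated at −0.274 to 0.259. With 3 mice per group these values cannot show whether same-numbered mice shared a step of handling. Why calls were lost with the block was not tested. For bins, fitting only the 2 groups compared gave 0 in Pip6a-PMO against WT in both muscles, no filter on low counts gave 0 there in quadriceps, and a covariate for the 5′ to 3′ ratio gave 0 there and 5 in Pip6a-PMO against HSA-LR in quadriceps. The cause was not tested.

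Bin ratios depended on the denominator. Against the nearest tested bins in place of the whole gene, the log2 ratio of mean shares of Camk2d bin 080 was −0.38 and then −0.038 with treatment in gastrocnemius, and 0.16 and then −0.57 in quadriceps, so that 3 of these 4 turned direction. Camk2b bin 016, whose nearest bins 015 and 017 changed with it, gave −0.061, 0.12, −0.20 and 0.084 in the same order. Camk2b bin 017 gave −1.52 and 1.52 in quadriceps, bin 022 gave 4.02 and 4.26 in HSA-LR against WT, bin 024 gave −2.55, 2.36, −2.23 and 2.07, and Camk2g bin 008 gave −0.99 with treatment in quadriceps. Against bin 018, bin 016 gave −2.12 and 1.93 in quadriceps, and against bin 025, bin 024 gave −1.66 and 1.57 there, both denominators chosen after seeing the data.

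With library sizes adjusted by TMM, 12 of 60 group means moved by more than 1 SD. Camk2a in HSA-LR became 264 CPM in gastrocnemius and 284 in quadriceps. In HSA-LR gastrocnemius Camk2b became 326, Camk2g 170.03, Camk1 31.4, Ppp3ca 235, Ppp3cb 302 and Ppp3cc 26.9 CPM. Treated Camk2b in quadriceps became 265, Ppp3ca 203 in treated gastrocnemius and 262 in HSA-LR quadriceps, and Rcan1 53.5 CPM in WT quadriceps.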
